A study of Mus musculus with 50 samples.

Results

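Tbc1d1 (ENSMUSG00000029174, chromosome 5, plus strand) and Tbc1d4 (ENSMUSG00000033083, chromosome 14, minus strand) were taken as a pair of related genes, and every CpG that the authors' table assigned to the promoter or gene body of either was described. They had 63 CpGs in 11 clusters, of 205304 CpGs in 51038 clusters in all. Tbc1d1 had 27 CpGs in 6 clusters and Tbc1d4 had 36 in 5. The pair was selected on measured values, because a cluster of Tbc1d1 was lower in the knockout. The knockout to wild-type difference of that cluster is therefore a description. Where counts of calls for genotype are given, they include this cluster and are no independent evidence for it.

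Both genes code for Rab GTPase-activating proteins of the TBC domain family. In muscle they keep the small Rab GTPases of GLUT4 storage vesicles in the inactive state. Phosphorylation by Akt after insulin, or by AMPK during contraction, relieves this brake and lets GLUT4, the glucose transporter encoded by Slc2a4, reach the cell surface. Tbc1d4 is also known as AS160.

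The data are methylation calls from the soleus, a postural muscle rich in slow fibres, of C57BL/6 mice of both sexes at 12 weeks of age. They were made by reduced representation bisulfite sequencing (RRBS), in which the enzyme MspI cuts the genome at CCGG and the ends of short fragments are read after bisulfite conversion. All mice carried the same floxed allele (Dnmt3a flox/flox, with LoxP sites around exon 19). Wild-type (WT) mice carried no Cre. The muscle knockout (mD3AKO, KO in the plots) had in addition an mCK-Cre transgene, which expresses Cre recombinase from the muscle creatine kinase promoter late in muscle differentiation, in skeletal muscle and heart. Muscles were collected 10, 30 or 60 min after 30 min of treadmill running at 16 m/min and 5% incline, or after 30 min on a sham treadmill (rest). WT groups held 5 samples at rest and 5, 5 and 6 at 10, 30 and 60 min, and mD3AKO groups held 5, 5, 7 and 6, with both sexes in each. Each sample was soleus from a single mouse, and p-values measure the spread between these samples. Numbers 1 to 25 cover rest and 60 min and numbers 26 to 50 cover 10 and 30 min, so a difference of 10 or 30 min from rest or 60 min cannot be told apart from one between these sets, and each set held both genotypes.

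A methylation level is the percentage of calls at a CpG or cluster that were methylated. A cluster is the authors' group of CpGs in which neighbours are at most 100 bp apart. A level is an average over all nuclei of the muscle, including those without Cre, so a change in the makeup of nuclei and a change within them cannot be told apart. Total depth was 12819404 to 41285655 calls per sample. For each sample the median was taken over the 553 clusters outside the 2 genes that were called lower in mD3AKO. It was 19.8 to 30.4% in the 21 WT samples and 7.53 to 13.2% in the 23 mD3AKO samples. These clusters were called by genotype in these same samples. The separation was therefore largely built in, and it is no independent check of the labels. Of the listed marker genes, 3 of 8 for muscle and 3 of 9 for other cell types had a CpG near their start. The start of Acta1, skeletal actin, was at 11.5% ± 11.8 (WT, SD, n = 21) against 17.4% ± 19.3 (mD3AKO, SD, n = 23), and that of Des, desmin, at 1.45% ± 4.30 (WT, SD, n = 21) against 1.14% ± 2.59 (mD3AKO, SD, n = 23). The start of Tnnc1, slow troponin C, was at 0.548% ± 0.839 (WT, SD, n = 21) against 0.483% ± 0.862 (mD3AKO, SD, n = 23). The start of Rbfox3, a neuronal gene, was at 59.6% ± 8.97 (SD, n = 21) and 54.0% ± 10.4 (SD, n = 23). The start of Pdgfra, a fibroblast receptor, was at 0.848% ± 2.33 (WT, SD, n = 21) against 1.55% ± 5.14 (mD3AKO, SD, n = 23). The makeup of cell types was not otherwise measured.

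The cluster on which the pair was chosen lies at chr5:64229872-64230678 (mm10, the same assembly as GRCm38). The authors assigned it to the body of Tbc1d1 only. By the annotation it is at an internal start site: it is intronic to the long transcripts, and RefSeq starts a curated transcript at 64230357 and GENCODE one at 64230399. That shorter transcript codes for 1033 residues, against 1162 and 1255 for the curated RefSeq transcripts that start at 64160260. The cluster is part of a run of 103 CpGs over 1491 bp (64229600 to 64231090), of which 7 (6.80%) were measured. Relative to the RefSeq start, 6 lie upstream at positions -485 to -289 bp and 1 lies downstream at position 320 bp. RefSeq's promoter window for this start (64230107 to 64230406) holds 33 CpGs in 300 bases at 74.0% GC, and none of them was measured. The window holds GGGCGG, the GC box, at 4 places counting both strands, and 35.7% of 32851 RefSeq promoter windows hold it at least once. It holds no TATAAA on either strand, a motif found in 13.6% of windows.

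The stretches below are shown because they carry the measured CpGs of the results, in capitals. The first and second are the upstream and downstream parts of the Tbc1d1 cluster. The third surrounds the CpG of Tbc1d4 with the largest difference between genotypes, and the fourth is a Tbc1d4 cluster that was methylated in both. All are read on the plus strand of GRCm38 from RefSeq.
Tbc1d1, upstream of the internal start, chr5:64229860-64230081: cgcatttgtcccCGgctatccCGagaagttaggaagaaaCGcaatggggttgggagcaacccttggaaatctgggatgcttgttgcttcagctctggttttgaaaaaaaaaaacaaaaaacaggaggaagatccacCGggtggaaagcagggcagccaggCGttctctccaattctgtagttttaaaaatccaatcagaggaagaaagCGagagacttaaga
Tbc1d1, downstream of the internal start, chr5:64230657-64230698: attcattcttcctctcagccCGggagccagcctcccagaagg
Tbc1d4, far intronic cluster, chr14:101477758-101477783: gcctctcccatcCGgtgaagagcaac
Tbc1d4, intronic cluster methylated in both genotypes, chr14:101549936-101550065: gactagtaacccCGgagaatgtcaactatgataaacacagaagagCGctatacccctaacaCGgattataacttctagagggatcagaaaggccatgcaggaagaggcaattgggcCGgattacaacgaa

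Of the CpGs of the Tbc1d1 cluster 3 lie in MspI sites: 64229872 and 64229996 upstream, and the downstream one. The first 3 CpGs lie within 27 bp and the next 3 within 72 bp, so a 75-bp read from an MspI site can cover each trio. CpGs of a trio therefore share molecules and are not independent measurements.

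At rest, the level of the Tbc1d1 cluster in the 5 WT samples was 7.70, 8.01, 10.4, 18.6 and 20.3%. In the 5 mD3AKO samples at rest it was 2.17, 3.30, 3.39, 4.15 and 5.69%. The groups did not overlap at rest. At 10 min the 5 WT samples were at 3.52, 12.0, 13.0, 15.5 and 19.6%, and the 5 mD3AKO samples at 3.17, 4.41, 6.06, 6.65 and 7.56%. WT 10 min replicate 49, at 3.52%, was within the mD3AKO range, and the other 4 were above it. At 30 min the 5 WT samples were at 12.6, 12.8, 21.6, 23.0 and 23.3%, while the 7 mD3AKO samples had a lowest level of 0.743%, a median of 3.07% and a highest of 4.77%. At 60 min the 6 WT samples ranged from 8.13 to 19.8% with a median of 12.5%, and the 6 mD3AKO samples from 0.647 to 5.38% with a median of 2.23%. The groups did not overlap at 30 or 60 min. This cluster was chosen for its difference between genotypes, and the share of all clusters without overlap is not given. Nothing is therefore read from the separation of the genotypes, here or below.

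Over all times the cluster had 14.3% ± 5.61 (WT, SD, n = 21) against 3.55% ± 1.97 (mD3AKO, SD, n = 23), and mD3AKO minus WT was -10.7 percentage points. All 23 mD3AKO samples were below the WT mean, and 20 of 21 WT samples were above the highest mD3AKO sample. The exception, replicate 49, had 1391 calls in the cluster, within the range of 612 to 2634 of all samples. Its median over the 553 other clusters was 27.7%, within the WT range, but those clusters were called with this sample labelled WT. Split by time, mD3AKO minus WT was -9.27 points for rest, -7.14 for 10 min, -15.9 for 30 min and -10.3 for 60 min. Among the samples numbered 1 to 25 the difference was -9.82 and among those numbered 26 to 50 it was -11.7. Counting error alone would give an SD of 1.03 in WT and 0.507 in mD3AKO, and the spread between samples was larger. No molecular identifiers are described for the RRBS reads, so counting errors here cover the calls and not the number of molecules.

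**Figure D1:**
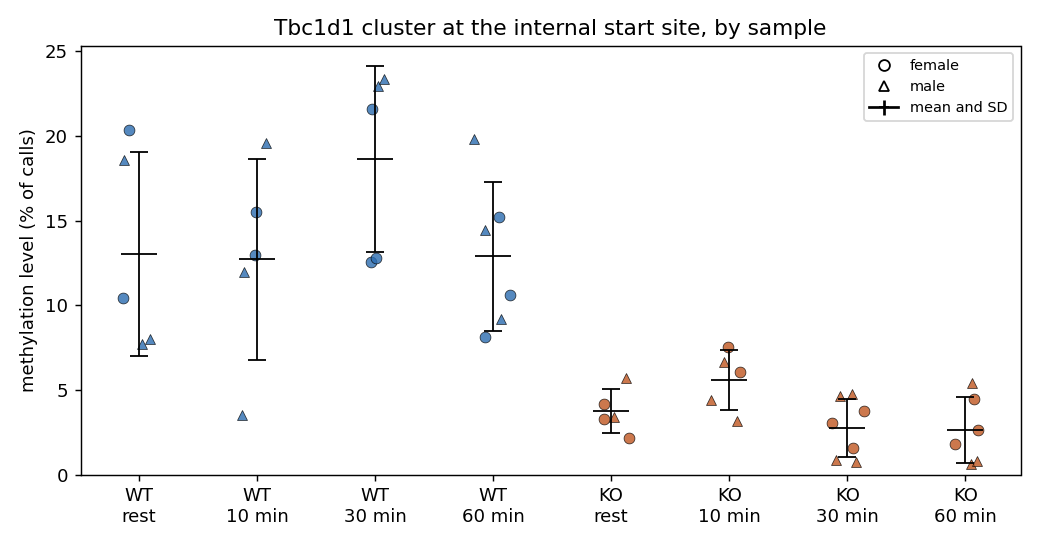
Methylation level (percent of calls) of the Tbc1d1 cluster at the internal start site, by group. Each point is 1 sample (circles female, triangles male), and black marks are the mean and SD. All mD3AKO (KO) samples lie between 0.647 and 7.56%, and only 1 WT sample, at 3.52%, lies within that range.

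For comparison, 2666 clusters had a WT mean within 5 points of this cluster's. Their differences between genotypes had a median of -1.93 points, with 5th and 95th percentiles of -8.86 and 4.52. Over all 51038 clusters the median difference was -0.455 points and 4.18% had a lower difference than the Tbc1d1 cluster.

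The 7 CpGs of the cluster did not share one level, and the difference between genotypes was in 5 of them. The CpG at 64229872 had levels of 5.65 to 27.9% in WT (median 13.3%) and 0 to 15.2% in mD3AKO (median 4.30%). At 64229881 WT samples ranged from 1.10 to 39.6% (median 13.6%) and mD3AKO samples from 0 to 10.4% (median 3.44%). At 64229899, with the highest WT mean of the 7 (22.3%) but not the highest median, the range was 1.07 to 59.5% (median 18.2%) in WT and 0 to 14.4% (median 5.02%) in mD3AKO. The mD3AKO means of this trio were 0.269, 0.211 and 0.233 of the WT means.

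In the second trio the middle and last CpGs had the larger relative differences. The CpG at 64230020 had 21.4% ± 12.1 (WT, SD, n = 21) against 3.91% ± 7.18 (mD3AKO, SD, n = 23), and no methylated call was made in 13 mD3AKO samples against 2 WT samples. At 64230068, the CpG nearest the start site on the upstream side, WT had 11.4% ± 5.97 (SD, n = 21) and mD3AKO 1.34% ± 3.72 (SD, n = 23). No methylated call was made there in 18 of 23 mD3AKO samples and in none of the 21 WT samples. The exceptions among mD3AKO samples reached 15.0%. The first CpG of this trio, the MspI site at 64229996, was near 0 in both genotypes, with 1.59% ± 2.15 (WT, SD, n = 21) against 2.12% ± 3.06 (mD3AKO, SD, n = 23), although the next CpG is 24 bp away. The other upstream MspI site, 64229872, was methylated in every WT sample.

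The single CpG downstream of the start, at 64230677, was also low in both, with a mean of 2.79% ± 7.37 (WT, SD, n = 21) against 1.45% ± 4.69 (mD3AKO, SD, n = 23). It had no methylated call in 16 WT and 20 mD3AKO samples. It has 17 CpGs in the 202 bp centred on it, against 5 to 11 for the 6 upstream CpGs. The upstream CpGs together had 15.1% ± 5.86 (WT, SD, n = 21) against 3.69% ± 2.09 (mD3AKO, SD, n = 23).

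**Figure D2:**
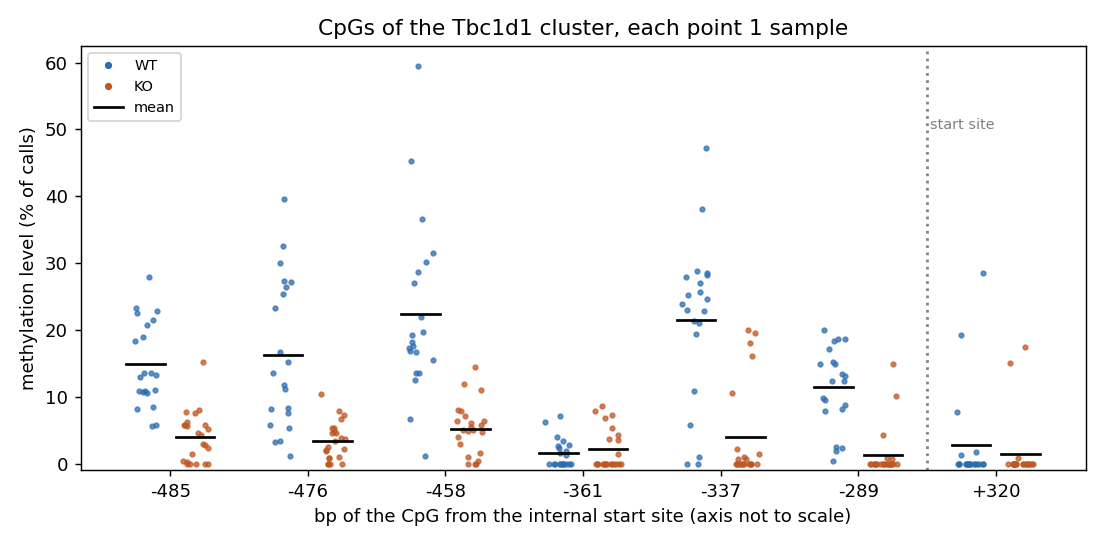
Methylation level (percent of calls) of each measured CpG of the Tbc1d1 cluster, ordered by its distance in bp from the RefSeq internal start site, with each point 1 sample and black bars the means. WT means are 11.4 to 22.3% at 5 upstream CpGs and 1.59 and 2.79% at the CpGs at -361 and 320 bp, while mD3AKO means are at most 5.21%.

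The CpGs varied together only in part, and distance did not order them. Over the 21 WT samples, the Pearson correlation of pairs that one read can cover was 0.53, 0.33 and 0.45 in the first trio and -0.20, -0.20 and 0.31 in the second, where both negative pairs include 64229996. Between CpGs of different trios it ranged from -0.10 (148 bp apart) to 0.38 (97 bp apart). These are descriptions over samples that share library and depth with each CpG.

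With the quasi-likelihood test of edgeR, which also enters the contrast that chose the pair, 1 of 11 member clusters passed an adjusted p of 0.05 for genotype, the Tbc1d1 cluster above, and 1.09% of all clusters did. Of the 63 CpGs, 5 passed, all in this cluster, against 0.289% of all CpGs. The body of Tbc1d1 passed and that of Tbc1d4 did not, where 1.4% of gene bodies passed, and the promoter of Tbc1d4 did not, where 0.789% of promoters did. Tbc1d1 had no CpG in the authors' promoter column. Because this contrast chose the genes, nothing is read from these counts.

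Along Tbc1d1, the other clusters differed by less. The island at the curated RefSeq start of the long transcripts (chr5:64159425-64161104, 11 CpGs, a run of 125 CpGs over 2122 bp) had 4.66% ± 2.81 (WT, SD, n = 21) against 2.78% ± 1.79 (mD3AKO, SD, n = 23), and 16 of 21 WT samples lay within the mD3AKO range. Its 64159434, next to the start of a GENCODE transcript, was at 17.3% ± 11.8 (WT, SD, n = 21) against 14.4% ± 13.4 (mD3AKO, SD, n = 23). Its last CpG, 64161103, lies in the sparse edge of the island, 843 bp downstream of the RefSeq start at 64160260, and had 12.4% ± 12.4 (SD, n = 21) against 5.09% ± 8.19 (SD, n = 23). Thus these 2 CpG islands of Tbc1d1 had WT means of 4.66 and 14.3% over the CpGs that were measured, and those CpGs lie at different distances from the starts.

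An intronic cluster between these islands (chr5:64201440-64201493, 3 CpGs) was at an intermediate level, with 46.7% ± 16.4 (WT, SD, n = 21) against 39.8% ± 19.4 (mD3AKO, SD, n = 23). Further into the gene, 3 CpGs in a coding exon (chr5:64277970-64278043) had 49.2% ± 13.4 (SD, n = 21) and 48.2% ± 10.9 (SD, n = 23). The spread between samples in both was larger than the difference of genotypes. The lone CpG at 64298808, in an intron, had 24.6% ± 20.6 (SD, n = 21) and 18.3% ± 12.6 (SD, n = 23), and WT 30 min replicate 32 was at 86.7% of only 15 calls. Without the 2 highest WT samples, an exclusion chosen after seeing the data, its difference moved from -6.36 to -1.30 points. Its direction was not stable: the difference was 5.11 points in samples numbered 1 to 25 and -18.5 in samples 26 to 50, and 2.59 in females and -14.6 in males. The last intronic cluster (chr5:64310428-64310438, 2 CpGs) was methylated in both, at 89.9% ± 8.45 (SD, n = 21) and 88.6% ± 7.40 (SD, n = 23).

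**Figure D3:**
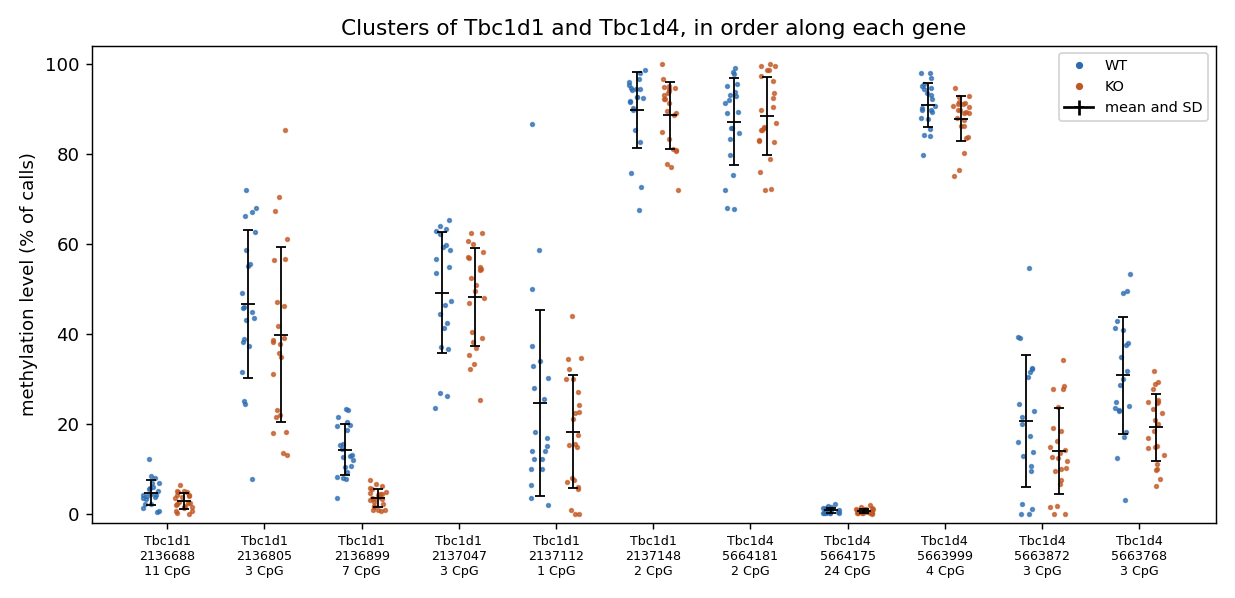
Methylation level (percent of calls) of the 11 clusters of Tbc1d1 and Tbc1d4 in order along each gene from its start, with each point 1 sample and black marks the mean and SD. The Tbc1d1 cluster at the internal start has 14.3% in WT and 3.55% in mD3AKO (KO), and the other clusters overlap widely.

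In Tbc1d4, the cluster with the largest difference was far inside the gene, at chr14:101477770-101477846 (3 CpGs). It is intronic in GENCODE and in the untranslated part of an exon of a predicted short RefSeq transcript that starts at 101478406. At rest the WT samples were at 2.96, 22.8, 23.1, 41.25 and 49.6%, and the mD3AKO samples at 6.24, 9.76, 13.0, 20.0 and 27.8%. The groups overlapped. Over all times it had 30.8% ± 13.0 (WT, SD, n = 21) against 19.2% ± 7.47 (mD3AKO, SD, n = 23), and 22 of 23 mD3AKO samples were below the WT mean. The difference was -16.6 points among samples numbered 1 to 25 and -6.55 among samples 26 to 50. Its first CpG, 101477770, had 42.5% ± 24.0 (SD, n = 21) against 20.0% ± 12.8 (SD, n = 23), and its other CpGs differed by -5.08 and -10.7 points. Neither the cluster nor its CpGs passed an adjusted p of 0.05 for genotype.

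The next Tbc1d4 cluster (chr14:101513294-101513366, 3 CpGs, intronic) had 20.5% ± 14.7 (WT, SD, n = 21) against 13.9% ± 9.51 (mD3AKO, SD, n = 23). The cluster at chr14:101549948-101550053 (4 CpGs, intronic) was at 90.9% ± 4.93 (SD, n = 21) and 87.8% ± 5.04 (SD, n = 23). Its difference was -3.11 points over all times and -10.3 points at 60 min, while at the other times it was -1.54 to 0.329 points.

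The promoter island of Tbc1d4 (chr14:101607791-101609184, 24 CpGs of a run of 132) was unmethylated, with 0.723% ± 0.583 (WT, SD, n = 21) against 0.664% ± 0.488 (mD3AKO, SD, n = 23). Its CpGs reach from 8 to 1400 bp inside the RefSeq start at 101609191. The authors placed 15 of the 24 in the promoter, and the rest in the gene body only. Upstream of it, 2 CpGs (chr14:101611726-101611815) that the authors also placed in the promoter were methylated, with 87.1% ± 9.66 (SD, n = 21) and 88.4% ± 8.74 (SD, n = 23). The promoter as the authors defined it thus mixes unmethylated and methylated CpGs, and its level of 11.0% ± 5.29 (WT, SD, n = 21) against 10.4% ± 3.47 (mD3AKO, SD, n = 23) depends on how the calls split between them.

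Sorted by their WT mean, 33 of the 63 CpGs were under 5%, 22 were between 5 and 80% and 8 were over 80%. Of the 22 in between, 20 were lower in mD3AKO, with a median difference of -6.97 points and a range of -22.6 to 3.73. The 22 include 5 CpGs of the Tbc1d1 cluster on which the pair was chosen. The count and median of the 22 are therefore partly fixed by selection. The share of all CpGs at such levels that were lower is not given, so nothing particular to these genes is read from this. Of the 33 lowest, 19 were lower, with a median of -0.104, and of the 8 highest, 7 were lower, with a median of -0.900. Over the 63 CpGs the Spearman correlation between the WT mean and the number of CpGs within 100 bp was -0.72, as a description across CpGs that share reads and samples.

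**Figure D4:**
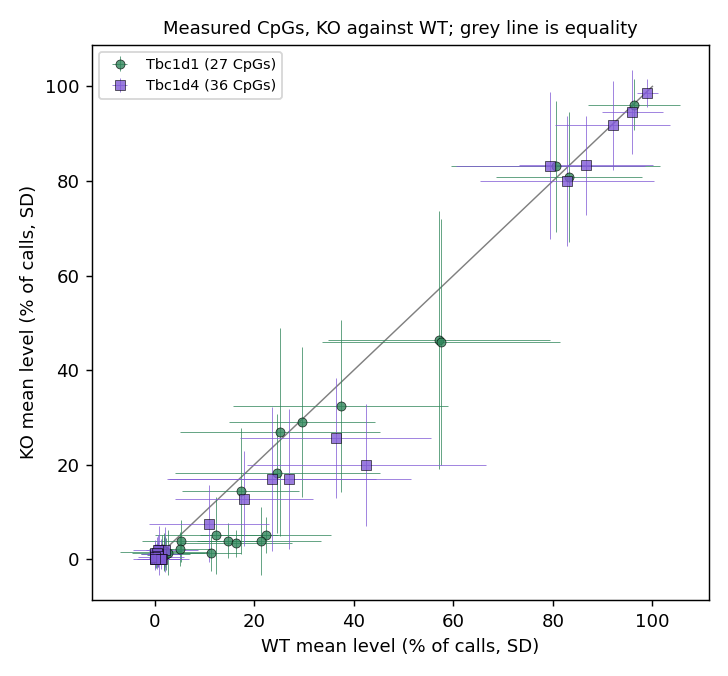
Mean methylation level (percent of calls) of the 63 CpGs in mD3AKO (vertical axis) against WT (horizontal axis), with bars the SD over samples and the grey line equality. The 5 CpGs of Tbc1d1 that passed for genotype, all upstream of the internal start, are at 11.4 to 22.3% in WT and 1.34 to 5.21% in mD3AKO, and CpGs near 0 or over 80% lie by the line.

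Time after exercise did not enter the selection of the genes and was tested. With edgeR's quasi-likelihood test, 0 of 11 member clusters passed an adjusted p of 0.05 for time, where 0% of all clusters did. None had an unadjusted p under 0.05 (the lowest was 0.310), where 2.86% of all clusters did. With edgeR's likelihood ratio test and with limma 0 passed, where 0.0196% and 0% of all clusters did. Of the 63 CpGs, 0 passed (0% of all CpGs), and 1 had an unadjusted p under 0.05, as 3.41% of all CpGs did. This was 101607851 in the Tbc1d4 promoter island. The bodies of both genes and the promoter of Tbc1d4 did not pass, where 0% of gene bodies and 0% of promoters did.

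The same held for the interaction of genotype and time, where 0 of 11 clusters passed in edgeR's quasi-likelihood test (0% of all clusters). The lowest unadjusted p was 0.0724, for the Tbc1d1 cluster at the internal start. None was under 0.05, where 2.74% of all clusters were. With the likelihood ratio test 1 cluster, the same one, had an unadjusted p under 0.05 (0.0450) and with limma 0 did. The share of all clusters under 0.05 with these tools is not given. With either tool 0 passed the adjusted threshold, where 0.0137% (likelihood ratio) and 0.00196% (limma) of all clusters did. None of the 63 CpGs passed (0% of all CpGs), and 0 had an unadjusted p under 0.05, where 2.89% of all CpGs did. The bodies of both genes and the promoter of Tbc1d4 did not pass either, where 0% of gene bodies and 0% of promoters did.

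For the level of the Tbc1d1 cluster alone, each time was compared with rest by an exact permutation test, two-sided, with adjustment over the 6 comparisons. In WT the difference from rest was -0.30 points at 10 min (exact p = 0.952, adjusted p = 0.981), 5.64 at 30 min (exact p = 0.167, adjusted p = 0.468) and -0.11 at 60 min (exact p = 0.981, adjusted p = 0.981). The signs of the WT values at 10 and 60 min turned when single samples were left out, and with an unweighted mean over CpGs (0.66 and 1.07 points). In mD3AKO the difference was 1.83 points at 10 min (exact p = 0.0952, adjusted p = 0.468), -0.97 at 30 min (exact p = 0.312, adjusted p = 0.468) and -1.10 at 60 min (exact p = 0.297, adjusted p = 0.468). With these groups the smallest p that a comparison can give is 0.00794 at 10 min and in WT at 30 min. The WT 30 min mean of 18.7% was the highest of the 8 groups, followed by 13.0, 12.9 and 12.7% in WT at rest, 60 and 10 min and by 5.57, 3.74, 2.77 and 2.64% in mD3AKO at 10 min, rest, 30 and 60 min. By the exact permutation tests above, no time differed from rest beyond the spread between samples, and the other pairs of neighbours within a genotype were not tested.

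Sex was likewise not used to select the genes. In WT the Tbc1d1 cluster was at 14.0% ± 4.28 (SD, n = 10) in females and 14.5% ± 6.82 (SD, n = 11) in males, and in mD3AKO at 3.69% ± 1.83 (SD, n = 11) and 3.43% ± 2.17 (SD, n = 12). With edgeR's quasi-likelihood test 0 of 11 clusters passed for sex (0% of all clusters). None had an unadjusted p under 0.05 (the lowest was 0.333), where 4.37% of all clusters did. For genotype by sex 0 of 11 passed (0% of all clusters), with a lowest unadjusted p of 0.0575 for the lone CpG at 64298808. In that quasi-likelihood test 3.28% of all clusters had an unadjusted p under 0.05. For this interaction the likelihood ratio test and limma each gave 1 unadjusted p under 0.05 (0.0331 and 0.0454). The share of all clusters under 0.05 with these tools is not given. For sex and for genotype by sex 0 passed the adjusted threshold with either tool, where 0% of all clusters did.

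The 5 clusters outside the 2 genes whose levels were most like the Tbc1d1 cluster were sought among 14473 clusters with at least 100 calls in every sample. They were in Ppp1r18, an actin-associated phosphatase subunit (Pearson r = 0.83), Unc45b, a myosin chaperone (0.80), Pde4a, a cyclic AMP phosphodiesterase (0.79), Fut11, a fucosyltransferase (0.79), and Ccnd3, a D-type cyclin (0.77), over 44 samples. The cluster of Unc45b had 16.1% ± 7.74 (WT, SD, n = 21) against 1.57% ± 0.785 (mD3AKO, SD, n = 23). All 5 were lower in mD3AKO, and the correlation is over samples of both genotypes. On deviations from the 8 group means, the highest were Pde4a (r = 0.66), 2 clusters assigned to no gene (0.63 and 0.60), Kmt2a, a histone methyltransferase (0.57), and Speg, a kinase of striated muscle (0.56). The island of the long Tbc1d1 transcripts had r = 0.47 on deviations, and the other member clusters had -0.14 to 0.21. No cluster of another gene lay within 100000 bp of the Tbc1d1 cluster. The nearest were in Pgm2, 136191 bp upstream, and an unassigned cluster 144170 bp downstream with 39.7% ± 10.7 (WT, SD, n = 21) against 42.1% ± 8.89 (mD3AKO, SD, n = 23).

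Of 49 other genes of insulin and AMPK signalling, GLUT4 vesicles and glucose handling, 47 had CpGs, in 105 clusters. In the edgeR quasi-likelihood test for genotype 4 of these clusters (3.81%) passed, all lower in mD3AKO, where 1.09% of all clusters were called lower and 0.00588% higher. The median difference of the 105 clusters was -0.468 points and that of all clusters -0.455. The list was chosen with earlier results of these data known, so nothing is read from its share of calls. Camkk2, a kinase that activates AMPK, had a CpG inside the gene at 58.0% ± 19.7 (WT, SD, n = 21) against 22.0% ± 15.1 (mD3AKO, SD, n = 23) (edgeR adjusted p = 0.00118). A cluster of Rab8b, a small GTPase of vesicle transport, was at 26.6% ± 15.4 (SD, n = 21) and 6.16% ± 5.34 (SD, n = 23) (edgeR adjusted p = 0.00404). The start of Pgm2 was at 2.27% ± 1.57 (SD, n = 21) and 0.826% ± 0.707 (SD, n = 23) (edgeR adjusted p = 0.0123), and a cluster in Pik3r1, the regulatory subunit of PI 3-kinase, at 51.1% ± 13.9 (SD, n = 21) and 32.4% ± 14.4 (SD, n = 23) (edgeR adjusted p = 0.0310). These lie 5520 bp into Camkk2, 63543 bp into Rab8b, 68 bp into Pgm2 and 9945 bp into Pik3r1.

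Slc2a4 and Akt2, the transporter and the insulin-activated kinase nearest to the pair in function, did not pass. The Slc2a4 cluster with the lowest p was at 72.4% ± 10.4 (WT, SD, n = 21) against 69.6% ± 10.9 (mD3AKO, SD, n = 23) (edgeR adjusted p = 0.875), and that of Akt2 at 47.0% ± 12.7 (SD, n = 21) and 36.3% ± 8.28 (SD, n = 23) (edgeR adjusted p = 0.351). Among 35 other genes with a TBC domain, 33 had CpGs, in 83 clusters. In the same test 1 (1.20%) passed, where 1.09% of all clusters did. It was a cluster of Tbc1d5 at 82.9% ± 9.91 (SD, n = 21) and 68.7% ± 9.49 (SD, n = 23) (edgeR adjusted p = 0.0413). This list was also chosen with earlier results of these data known, and nothing is read from its share. For time, for the interaction and for sex, 0 clusters of either list passed in edgeR's quasi-likelihood test, where 0% of all clusters did.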

How the data were processed

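RRBS of 44 soleus samples was used, of 50 labelled samples. Per the submitters' processing notes, reads were trimmed with Trim Galore 0.4.0 and cutadapt 1.9.1 and aligned to mm10 with Bismark 0.18.1. The authors deposited counts of methylated and unmethylated calls per CpG, with at least 8 calls in every sample and without sex chromosomes. PCR copies cannot be told apart in RRBS without molecular identifiers, and none are described. The 6 samples not used had no counts in the deposited table, among them a library whose title and genotype field disagree.

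Levels are methylated calls over all calls, pooled over a cluster. Counts per CpG, cluster, promoter and gene body were fitted over all features with the quasi-likelihood test of edgeR 4.0.16 in R 4.3.3, with Benjamini-Hochberg adjustment and a threshold of 0.05, after tests on simulated data. Single levels were compared by exact permutation tests that listed every arrangement of the samples, written in Python 3.11.15 with numpy 2.4.6. Alternatives were edgeR's likelihood ratio test, limma 3.58.1 on log2 ratios, at least 20 calls per CpG, unweighted means, sex as a covariate, sample subsets and leaving out each sample.

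The members and lists were chosen with earlier results of these data known. All member clusters were described. From the lists, clusters passing for genotype were named, with Slc2a4 and Akt2, and by correlation the 5 most alike clusters. The values of 1 marker gene are not reported here.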

Additional observations from a re-analysis of the deposited data

Results flagged for a closer look

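A sample stood apart from the rest of its group in 22 of 140 tests by Dixon's 95% critical value, which chance exceeds in about 1 in 20 groups. Many groups of single CpGs hold mostly zeros, where any sample with methylated calls stands apart, and no explanation was tested.

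At the last intronic cluster of Tbc1d1, WT rest replicate 11 (67.6%), WT 30 min replicate 31 (82.6%) and mD3AKO 60 min replicate 3 (77.1%) were the lowest of their groups. At the Tbc1d4 cluster methylated in both genotypes, mD3AKO 30 min replicate 36 was lowest at 80.2%.

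The others were CpGs of the Tbc1d1 cluster at the internal start. At 64229872, WT 10 min replicate 42 was highest at 23.3% and mD3AKO 10 min replicate 39 at 15.2%. At 64229899, WT 60 min replicate 18 was highest at 36.6%. At 64229996 the highest were WT 30 min replicate 31 (6.17%), WT 60 min replicate 25 (3.33%), mD3AKO rest replicate 8 (5.26%) and mD3AKO 30 min replicate 41 (4.32%).

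At 64230020, WT 30 min replicate 31 was lowest at 5.79%, and mD3AKO rest replicate 21 (16.0%) and mD3AKO 30 min replicate 43 (2.17%) were highest. At 64230068 the highest were mD3AKO rest replicate 8 (10.1%), mD3AKO 10 min replicate 45 (15.0%) and mD3AKO 30 min replicate 27 (4.23%). At 64230677 the highest were WT 10 min replicate 42 (28.6%), WT 30 min replicate 37 (7.69%), WT 60 min replicate 16 (19.2%), mD3AKO rest replicate 24 (17.5%) and mD3AKO 30 min replicate 43 (15.1%).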

How the results depend on the processing

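The call of the Tbc1d1 cluster for genotype was fixed by its selection, so its count of 1 under the other tools, the stricter filter and the sex covariate says nothing of stability. The count was 1 to 2 when each sample was left out with limma. The second, the far intronic cluster of Tbc1d4, was called only without WT rest replicate 13 (limma adjusted p = 0.0255). Counts for time and for the interaction were 0 to 0 when samples were left out. The difference of the Tbc1d1 cluster ranged from -11.2 to -10.2 points on leaving out samples, and the median over Tbc1d4 clusters from -3.68 to -2.54. That median, -3.11 over all samples, was -6.34 in samples 1 to 25 and -0.131 in samples 26 to 50, -1.72 with unweighted means and -1.44 with at least 20 calls. With an unweighted mean over CpGs, the WT differences from rest turned to 0.66 at 10 min and 1.07 at 60 min. On leaving out samples these ranged from -2.02 to 2.00 in WT at 10 min, 4.31 to 7.47 at 30 min and -1.49 to 1.72 at 60 min, turning positive at 10 min without WT rest replicate 14 (1.10) or 20 (1.53) or WT 10 min replicate 49 (2.00), and at 60 min without WT rest replicate 14 (1.29) or 20 (1.72) or WT 60 min replicate 4 (0.346), 9 (0.633) or 22 (0.847). In mD3AKO they ranged from 1.33 to 2.43, -1.36 to -0.48 and -1.65 to -0.62. The likelihood ratio test called 9 clusters of the signalling list against 4, and for the TBC list the likelihood ratio test and limma each called 3 and a minimum of 20 calls gave 2, against 1. Over all clusters these settings called 2.77% (likelihood ratio), 1.75% (limma) and 1.53% (20 calls), against 1.09%. The causes were not tested. No paired analysis was possible because no replicate number is shared between groups. Depth limits the clusters with the fewest calls, such as the lone CpG of Tbc1d1 with 15 to 239.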
